A study of Mus musculus with 24 samples.

Results

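The matrix metalloproteinases and their inhibitors described here are 10 genes out of 22180 with a row of their own on the arrays. They comprise the proteases Mmp2, Mmp3, Mmp9, Mmp12, Mmp13, Mmp14 and Mmp19 and the tissue inhibitors Timp1, Timp2 and Timp3. Each of the 10 had exactly 1 probe row with a single symbol, and all 10 were among the 15496 genes tested. The genes were chosen by measured values as well as by family: they were listed with earlier results of these arrays known, among them the levels of Mmp9 and Mmp12 in macrophages and of Mmp3, Mmp12 and Timp1 in preadipocytes of obese and lean mice. Differences between obese and lean mice in those cells are therefore given as a description without p-values, and counts of them past the threshold stand beside the share of all genes with nothing read from them. Comparisons with formerly obese mice or between cell types often reuse those obese or lean arrays. Where they do, p-values and counts are not independent of how the genes were chosen.

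Matrix metalloproteinases are zinc enzymes that are made as inactive precursors and cut the proteins of the extracellular matrix, and many are secreted. The TIMP proteins bind their active sites and block them, and TIMP2 together with MMP14 at the cell surface also activates the MMP2 precursor. In adipose tissue these enzymes take part in the remodelling of the collagen network around growing and shrinking adipocytes, and they are made by macrophages as well as by fibroblast-like progenitor cells.

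The cells came from gonadal fat of male C57Bl/6 mice and were sorted live after collagenase digestion. High-fat diet (HFD) mice ate 60% fat, normal diet (ND) mice were lean, and weight loss (WL) mice had 12 weeks of the high-fat diet followed by 8 weeks without it. The labels give 3 cell types, namely preadipocytes (PA), dendritic cells (ATDC) and macrophages (ATM), and the macrophages were split by CD11c, the integrin encoded by Itgax. The 24 arrays form 9 groups: 3 of HFD PA, 3 of ND PA, 3 of HFD ATDC, 2 of ND ATDC, 3 of WL CD11c+ ATM, 3 of HFD CD11c+ ATM, 2 of WL CD11c- ATM, 3 of HFD CD11c- ATM and 2 of ND CD11c- ATM. CD11c+ ATM of ND mice were too scarce to purify. The sources used here do not state the sorting markers other than CD11c, the age of the mice or how long the HFD mice were on the diet. HFD cells and PA were 3 pools of 3 to 4 mice, ND macrophages and dendritic cells were 2 pools of cells from 4 mice, and the pooling of WL cells is not given. P-values measure the spread between these pools, and the small number of arrays limits the precision.

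Values are log2 normalized expression as deposited. The median over all rows of an array was between 2.96 and 3.15, and a gene below the median of its array is taken here as not measured above background. Levels of different genes are not compared, since each has its own probes.

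The labelled cell types were checked against marker genes. The median level of 11 macrophage markers was 9.62 to 10.65 on the macrophage arrays, 8.16 to 9.62 on the ATDC arrays and 4.20 to 8.12 on the PA arrays, so this list did not set dendritic cells clearly apart from macrophages. The median of the 9 dendritic cell markers with a row was 7.86 to 8.57 on the ATDC arrays, against 2.92 to 5.12 elsewhere. The 11 preadipocyte and fibroblast markers with a row had a median of 9.55 to 9.99 in HFD PA and 10.12 to 10.23 in ND PA. Itgax was higher on each of the 6 CD11c+ arrays (7.70 to 9.19) than on each of the 7 CD11c- arrays (2.76 to 7.10). Arrays of the same group correlated with r = 0.88 to 0.98 over genes (median 0.96, 21 pairs). The mean correlation with the own group was 0.88 to 0.92 for WL arrays and 0.94 to 0.98 for all others. The WL arrays thus varied most, while the tests share the spread of each gene over all groups. An array that stood apart was HFD CD11c- ATM replicate 3, with a preadipocyte marker level of 8.16, against 6.31 and 4.81 on the others of its group. HFD ATDC replicate 1 had a mast cell marker level of 6.59, against 2.80 and 2.94. In bulk samples, fewer cells of a type and less RNA per cell cannot be told apart.

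**Figure D1:**
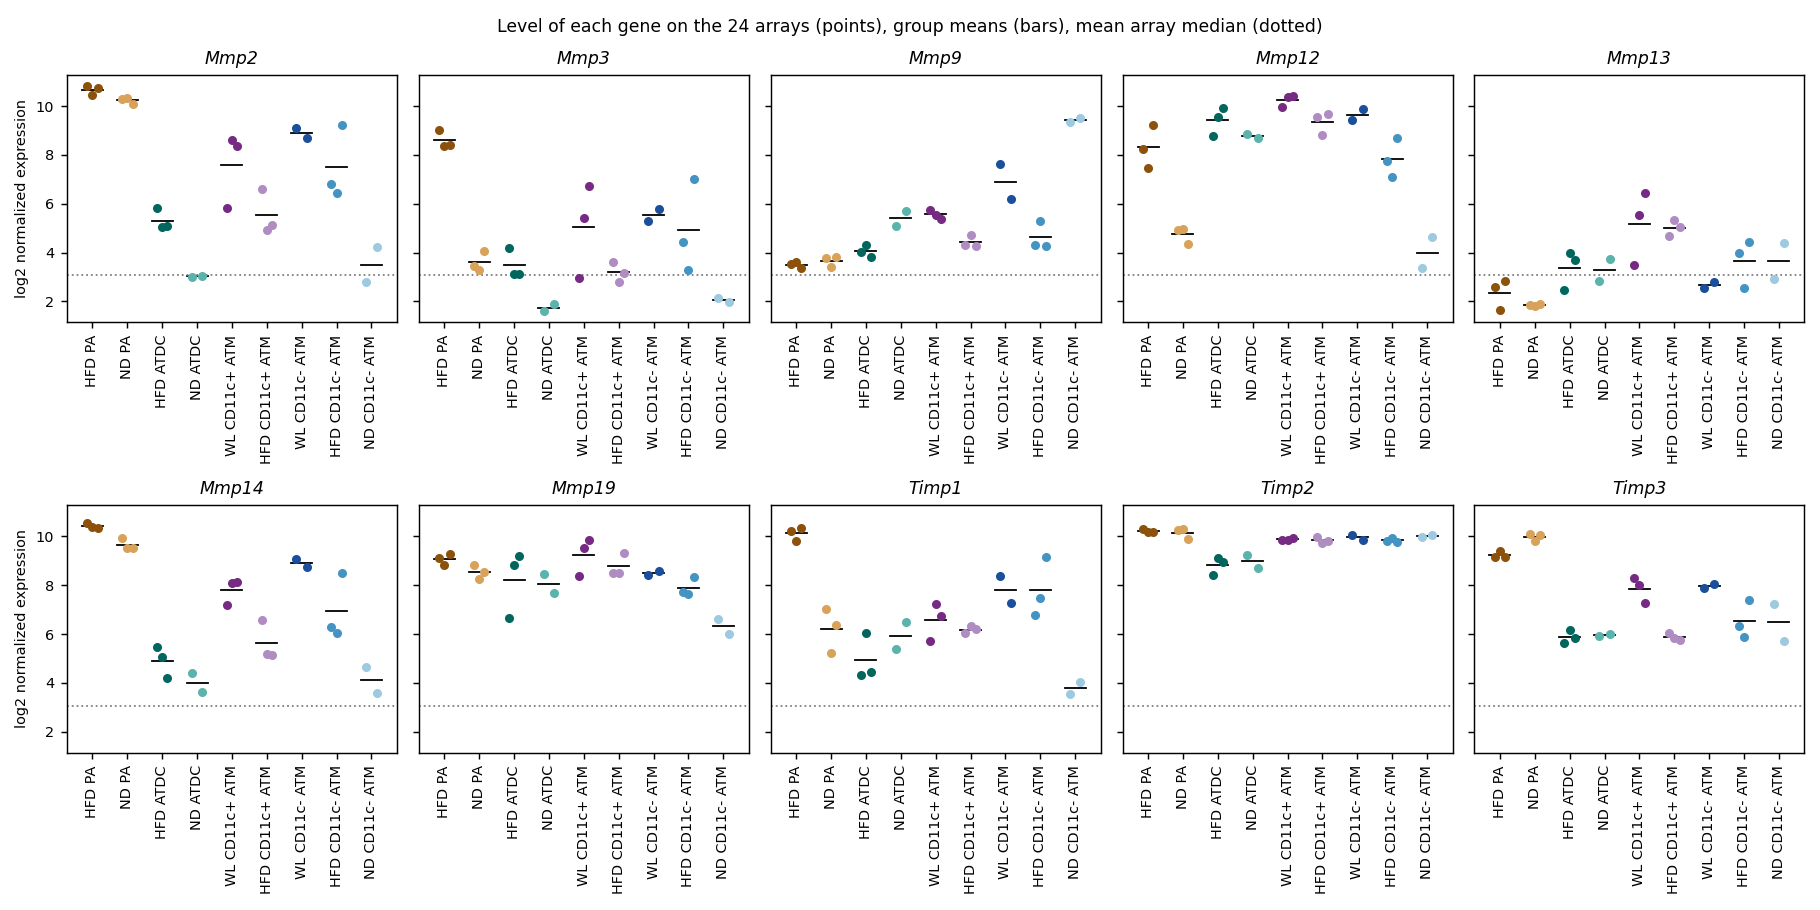
Log2 normalized expression (vertical axis) of each of the 10 genes on all 24 arrays, by group (horizontal axis); points are arrays, black bars are group means, and the dotted line is the mean of the array medians. Mmp9 is highest on both ND CD11c- ATM arrays, Mmp3 on the 3 HFD PA arrays, and Timp2 varies least among groups.

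Mmp13, Mmp12 and Mmp3 are neighbours on chromosome 9, in that order, with Mmp1b between Mmp12 and Mmp3. They belong to a run of protein-coding protease genes that continues with Mmp1a, Mmp10, Mmp8, Mmp27, Mmp20 and Mmp7. The 100 bases before their annotated starts are shown because these neighbours had their highest group means in different cells: Mmp13 and Mmp12 in CD11c+ ATM of WL mice and Mmp3 in PA of HFD mice. The windows are from RefSeq on GRCm38.p6, on the plus strand, 5′ to 3′. Capitals mark the AP-1 motif (TGAGTCA, or TGACTCA on the other strand) and the TATA motif (TATAAA, or TTTATA on the other strand). Mmp12 has 2 annotated starts.
Mmp13, chr9:7272414-7272513: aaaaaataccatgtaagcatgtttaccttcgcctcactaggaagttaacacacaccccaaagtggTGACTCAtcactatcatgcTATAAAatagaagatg
Mmp12 first start, chr9:7344297-7344396: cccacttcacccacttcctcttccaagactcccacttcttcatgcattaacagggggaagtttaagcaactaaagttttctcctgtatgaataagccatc
Mmp12 second start, chr9:7347274-7347373: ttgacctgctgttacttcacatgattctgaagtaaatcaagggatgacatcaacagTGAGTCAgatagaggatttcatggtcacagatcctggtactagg
Mmp3, chr9:7445722-7445821: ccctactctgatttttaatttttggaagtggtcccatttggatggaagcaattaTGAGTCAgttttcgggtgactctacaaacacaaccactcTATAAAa

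Of the 10 genes, 7 have a promoter entry, with 8 windows in all. The AP-1 motif is in 3 of the 8 windows, those of Mmp13, Mmp3 and the second start of Mmp12, against 1.88% of 32851 annotated windows of 100 bases. The first window of Mmp12 holds neither motif. The TATA motif is in 2 of the 8, those of Mmp13 and Mmp3, against 5.56% of all windows. The windows of Mmp14, Timp1, Timp2 and Timp3 hold neither motif. Mmp2, Mmp9 and Mmp19 are named only. A motif match is a description of the letters and was not tested for binding.

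Mmp9, or gelatinase B, cuts denatured collagen and basement membrane collagen. It was highest in macrophages of lean mice and lower in those of obese mice, and in formerly obese mice it lay in between. HFD CD11c- ATM had levels of 4.30, 5.30 and 4.27, against 9.34 and 9.51 in ND CD11c- ATM, and these 2 ND arrays lay above every other array of the series. The difference between HFD and ND was -4.80 ± 0.35 (SE), or 27.8-fold lower in HFD. In WL CD11c- ATM the levels were 7.62 and 6.20, all above the 3 HFD arrays and below the 2 ND arrays. Mmp9 rose in WL over HFD CD11c- ATM by 2.28 ± 0.35 (limma adjusted p = 0.00149) and fell in WL against ND CD11c- ATM by 2.51 on the log2 scale (SE 0.39, limma adjusted p = 0.000775). These 2 comparisons reuse the HFD and ND arrays whose levels were known.

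CD11c+ ATM had Mmp9 levels of 5.76, 5.55 and 5.38 in WL, against 4.31, 4.71 and 4.25 in HFD. The groups did not overlap, and the difference of 1.14 ± 0.32 did not pass the threshold (limma adjusted p = 0.0718). Dendritic cells had 4.03, 4.32 and 3.81 in HFD, against 5.10 and 5.71 in ND, without overlap, and the difference of -1.36 ± 0.35 did not pass either (limma adjusted p = 0.138). Preadipocytes had 3.36 to 3.62 in HFD and 3.42 to 3.80 in ND, so that Mmp9 stayed near the array median in them. ND ATDC were below ND CD11c- ATM by a log2 difference of -4.01 ± 0.39 (limma adjusted p = 1.39e-06). ND PA were below the same ND arrays by a log2 difference of -5.76 ± 0.35 (limma adjusted p = 2e-09). Both comparisons reuse the ND CD11c- ATM arrays whose levels were known. Mmp9 is also a known product of neutrophils. The neutrophil marker level was 2.33 and 3.23 on the ND CD11c- ATM arrays, against 2.10 to 3.30 elsewhere. Of its 8 genes, Ly6g, Camp, Retnlg and Ltf averaged 1.90, 1.61, 1.91 and 2.52 in ND CD11c- ATM, below the array median. Ngp and Cxcr2 averaged 2.38 and 3.46 in HFD CD11c- ATM, against 3.19 and 3.52 in ND CD11c- ATM. S100a8, which other myeloid cells also make, averaged 7.86 in WL, 5.67 in HFD and 4.87 in ND CD11c- ATM, and its partner S100a9 averaged 8.75 in WL, 5.88 in HFD and 6.45 in ND. In CD11c+ ATM, S100a8 and S100a9 averaged 8.03 and 7.50 in WL, against 5.15 and 4.81 in HFD. The part of neutrophils in the Mmp9 levels was not tested.

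Mmp2, or gelatinase A, cuts denatured and basement membrane collagen, and Mmp14 encodes the membrane-bound collagenase that activates it. Both were highest in preadipocytes. Mmp2 had levels of 10.83, 10.46 and 10.75 in HFD PA, against 10.29, 10.34 and 10.10 in ND PA. Mmp14 had levels of 10.54, 10.41 and 10.35 in HFD PA, against 9.93, 9.52 and 9.55 in ND PA. For each gene the HFD arrays all lay above the ND arrays, by small differences of 0.44 ± 0.68 for Mmp2 and 0.77 ± 0.53 for Mmp14. Against ND CD11c- ATM, Mmp2 was higher in ND PA (log2 difference 6.74 ± 0.76, limma adjusted p = 1.23e-06) and Mmp14 46.6-fold higher (log2 difference 5.54 ± 0.59, limma adjusted p = 6.66e-07). Against HFD CD11c+ ATM, Mmp2 was higher in HFD PA by 5.13 ± 0.68 (limma adjusted p = 9.51e-06) and Mmp14 by 4.79 ± 0.53 (limma adjusted p = 1.37e-06).

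In CD11c- macrophages both genes were higher in WL and in HFD than in ND mice. Mmp2 had levels of 9.09 and 8.70 in WL, 6.81, 6.44 and 9.24 in HFD, and 2.79 and 4.23 in ND CD11c- ATM. The lower ND value, of replicate 1, was below its array median, so each Mmp2 difference from ND CD11c- ATM rests on 1 of 2 arrays measured above background. Mmp14 had levels of 9.08 and 8.74 in WL, 6.31, 6.03 and 8.49 in HFD, and 4.65 and 3.59 in ND CD11c- ATM. The ND arrays lay below all WL and HFD arrays, and the highest HFD value of each gene was that of replicate 3. HFD exceeded ND by 3.99 ± 0.76 for Mmp2 and 2.82 ± 0.59 for Mmp14, and by 3.12 and 2.04 without HFD replicate 3. For Mmp14 that difference passed the threshold in 2 of 5 leave-outs. WL over ND, Mmp2 rose by 5.39 ± 0.83 (limma adjusted p = 0.000775). Mmp14 rose in the same comparison by 4.79 ± 0.64 (limma adjusted p = 0.000229).

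WL against HFD gave smaller differences. In CD11c- ATM Mmp14 differed by 1.97 ± 0.59 (limma adjusted p = 0.0748), and by 2.75 without HFD CD11c- ATM replicate 3, where it passed (limma adjusted p = 0.0048). In CD11c+ ATM Mmp14 had levels of 7.18, 8.09 and 8.12 in WL, against 6.59, 5.18 and 5.14 in HFD, and rose by 2.16 ± 0.53 (limma adjusted p = 0.0483). That call was lost on leaving out any of 5 of the 6 arrays. Mmp2 had levels of 5.82, 8.62 and 8.36 in WL CD11c+ ATM, against 6.62, 4.92 and 5.12 in HFD, and WL replicate 1 lay inside the HFD range. The Mmp2 difference of 2.05 ± 0.68 did not pass (limma adjusted p = 0.118), while without WL CD11c+ ATM replicate 1 it was 2.94 (limma adjusted p = 0.0334).

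Preadipocyte and fibroblast markers gave the macrophage groups the same order as Mmp2 and Mmp14 did, by group mean. The median marker level was 8.57 and 7.24 in WL CD11c- ATM, 6.31, 4.81 and 8.16 in HFD CD11c- ATM, and 4.42 and 4.25 in ND CD11c- ATM. In CD11c+ ATM it was 6.61, 6.90 and 6.59 in WL, against 5.60, 4.34 and 4.27 in HFD. On those WL CD11c+ arrays Mmp2 was at 5.82, 8.62 and 8.36, so the 2 did not move together within that group. Pdgfra averaged 7.91 in WL, 6.27 in HFD and 3.78 in ND CD11c- ATM, and Dlk1 was at 2.41, 2.29 and 2.74 in WL, HFD and ND. Mast cell markers were at 9.34 and 9.50 in WL CD11c- ATM, 7.26, 2.45 and 5.17 in HFD CD11c- ATM, and 2.74 and 2.92 in ND CD11c- ATM. In CD11c+ ATM they were at 7.08, 6.41 and 6.58 in WL, against 5.60, 2.49 and 3.10 in HFD. Endothelial cell markers were at 5.58 and 6.05 in WL, 3.88, 3.80 and 4.73 in HFD, and 4.28 and 3.93 in ND CD11c- ATM. NK cell markers averaged 5.08 in WL, 3.36 in HFD and 3.28 in ND CD11c- ATM, and B cell markers 5.30, 3.80 and 4.28. Monocyte markers averaged 7.38, 6.72 and 5.91 there, and pericyte and smooth muscle markers 5.39, 4.34 and 3.86. Macrophage markers (9.97, 10.46 and 10.64) and dendritic cell markers (4.53, 4.74 and 5.08) were lowest in WL. The part of other cell types in the macrophage values of any of the 10 genes was not tested.

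**Figure D2:**
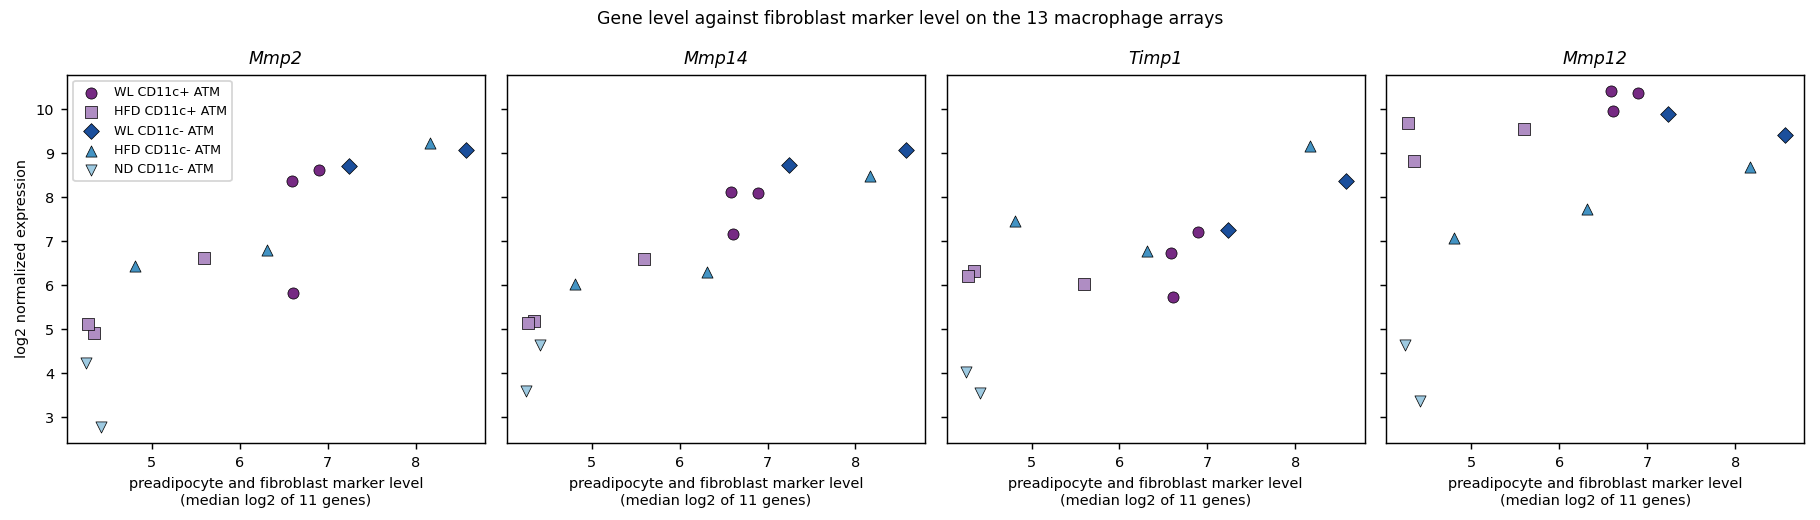
Level of Mmp2, Mmp14, Timp1 and Mmp12 (vertical axis, log2) against the median level of 11 preadipocyte and fibroblast markers (horizontal axis, log2) on the 13 macrophage arrays; each point is an array and its symbol gives the group. The highest Mmp2 level, 9.24, is on the HFD CD11c- ATM array with a marker level of 8.16, whereas the HFD CD11c+ ATM arrays have Mmp12 levels of 8.83 to 9.69 at marker levels of 4.27 to 5.60.

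Mmp3, or stromelysin 1, cuts proteoglycans, laminin and fibronectin and activates other protease precursors. It stood apart in preadipocytes of obese mice. Levels were 9.02, 8.35 and 8.41 in HFD PA, against 3.45, 3.30 and 4.07 in ND PA. The HFD arrays were above every other array of the series, and HFD exceeded ND by 4.99 ± 0.77, or 31.8-fold. HFD PA exceeded HFD CD11c+ ATM, with 3.62, 2.78 and 3.18, by 5.40 ± 0.77 (limma adjusted p = 2.06e-05). That comparison reuses the HFD PA arrays whose levels were known. In CD11c- ATM the levels were 5.31 and 5.79 in WL, 4.45, 3.27 and 7.01 in HFD, and 2.14 and 1.98 in ND, the ND arrays being below their median. WL exceeded ND by 3.49 ± 0.94 (limma adjusted p = 0.032), or by at least 2.44 against the array median, and the call was lost on leaving out any of the 4 arrays. In WL CD11c+ ATM Mmp3 had levels of 2.97, 5.43 and 6.73, and it differed from HFD CD11c+ ATM by 1.85 ± 0.77 (limma adjusted p = 0.193). In ATDC it was at 4.20, 3.11 and 3.13 in HFD, against 1.60 and 1.88 in ND, and did not pass (limma adjusted p = 0.604).

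Mmp12, the macrophage elastase, cuts elastin. It was high in every macrophage and dendritic cell group other than ND CD11c- ATM, and in preadipocytes of obese mice. Levels in CD11c- ATM were 9.42 and 9.89 in WL, 7.73, 7.08 and 8.69 in HFD, and 3.36 and 4.64 in ND. The 3 groups did not overlap, and HFD exceeded ND by 3.84 ± 0.50. WL exceeded ND by 5.66 ± 0.55 (50.4-fold, limma adjusted p = 3.38e-06). That comparison reuses the ND arrays whose levels were known. WL over HFD differed by 1.82 ± 0.50 (limma adjusted p = 0.0547), and by 2.24 without HFD CD11c- ATM replicate 3 (limma adjusted p = 0.0214). Itgax also differed among these CD11c- groups, averaging 6.52 in WL, 6.13 in HFD and 2.89 in ND. The part of cells with CD11c in the Mmp12 levels was not tested.

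CD11c+ ATM had Mmp12 levels of 9.97, 10.38 and 10.41 in WL, against 9.55, 8.83 and 9.69 in HFD, a difference of 0.90 ± 0.45 (limma adjusted p = 0.269). The WL arrays lay above all HFD arrays, though the difference did not pass. HFD CD11c+ and HFD CD11c- ATM differed by 1.52 ± 0.45, without overlap and without passing (limma adjusted p = 0.426). ATDC had levels of 8.79, 9.55 and 9.92 in HFD, against 8.88 and 8.68 in ND, with a difference of 0.64 ± 0.50 (limma adjusted p = 0.839). ND ATDC exceeded ND CD11c- ATM by 4.78 ± 0.55 (limma adjusted p = 1.03e-05). That comparison also reuses the ND CD11c- ATM arrays whose levels were known.

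In preadipocytes Mmp12 had levels of 8.24, 7.48 and 9.24 in HFD, against 4.94, 4.97 and 4.36 in ND, and HFD exceeded ND by 3.56 ± 0.45. Macrophage markers differed in the same direction, with median levels of 7.07, 6.21 and 8.12 in HFD PA, against 5.60, 4.96 and 4.20 in ND PA. The HFD array with the highest macrophage marker level also had the highest Mmp12, and the part of macrophages in the Mmp12 level was not tested. Pericyte and smooth muscle markers were at 6.48, 6.74 and 6.64 in HFD PA, against 5.23, 4.81 and 4.37 in ND PA. Endothelial cell markers were at 4.98, 5.33 and 5.21 in HFD PA, against 4.72, 3.59 and 3.25 in ND PA. The part of any of these cells in the HFD PA levels of Mmp3, Mmp12 and Timp1 was not tested.

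Mmp13, the main collagenase of the mouse, cuts fibrillar collagen. It was highest in CD11c+ macrophages, with 3.50, 5.53 and 6.43 in WL, against 4.68, 5.32 and 5.05 in HFD. Those groups overlapped (difference 0.14 ± 0.61, limma adjusted p = 0.925). WL CD11c- ATM had 2.55 and 2.79, below the array median, and CD11c+ ATM of WL mice differed from them by 2.48 ± 0.69, or at least 2.03 (limma adjusted p = 0.079). Without WL CD11c+ ATM replicate 1 that difference was 3.31 and passed (limma adjusted p = 0.00856). HFD CD11c+ ATM exceeded HFD CD11c- ATM, with 3.99, 2.54 and 4.44, by 1.36 ± 0.61 (limma adjusted p = 0.749). All 6 PA arrays were below their median, and HFD PA fell below HFD CD11c+ ATM by at least 1.98 on the log2 scale (limma adjusted p = 0.00244). The measured difference was -2.67 ± 0.61. Dendritic cells had 2.47, 3.97 and 3.71 in HFD, against 2.85 and 3.75 in ND.

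Mmp19, which cuts basement membrane and other matrix proteins, varied less among groups than the other proteases. Its lowest levels were in ND CD11c- ATM, at 6.63 and 6.02, and the other group means were between 7.90 and 9.25. In CD11c- ATM it was at 8.43 and 8.59 in WL and at 7.74, 7.64 and 8.32 in HFD, and the ND arrays lay below both groups. WL exceeded ND by 2.18 ± 0.61 (limma adjusted p = 0.036), a call lost on leaving out any of the 4 arrays. ND PA, at 8.85, 8.25 and 8.56, exceeded ND CD11c- ATM by 2.23 ± 0.55 (limma adjusted p = 0.00491), which was lost without ND CD11c- ATM replicate 2 (limma adjusted p = 0.0728). HFD PA were at 9.13, 8.82 and 9.26, or 0.52 ± 0.49 above ND PA. HFD ATDC had 6.66, 8.82 and 9.22, against 8.46 and 7.68 in ND ATDC, and the low HFD array was replicate 1.

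Timp1, an inhibitor of most secreted MMPs and a known product of stimulated fibroblasts and macrophages, was highest in preadipocytes of obese mice. Levels were 10.22, 9.81 and 10.34 in HFD PA, against 7.04, 5.21 and 6.38 in ND PA. All 3 HFD values exceeded every other array, and HFD exceeded ND by 3.91 ± 0.58, or 15.1-fold. In CD11c- ATM the levels were 8.36 and 7.26 in WL, 6.79, 7.47 and 9.16 in HFD, and 3.55 and 4.03 in ND. WL and HFD overlapped (difference 0.00 ± 0.65, limma adjusted p = 0.998), while both lay above ND. WL exceeded ND by 4.02 ± 0.71 (limma adjusted p = 0.00235), and HFD exceeded ND by 4.02 ± 0.65, or 3.34 without HFD CD11c- ATM replicate 3. Dendritic cells had 4.31, 6.04 and 4.46 in HFD, against 5.38 and 6.50 in ND, and the groups overlapped (limma adjusted p = 0.765). CD11c+ ATM had 5.73, 7.22 and 6.73 in WL, against 6.03, 6.31 and 6.20 in HFD. HFD PA exceeded HFD CD11c+ ATM by 3.94 ± 0.58 (limma adjusted p = 3.08e-05). That comparison reuses the HFD PA arrays whose levels were known. ND PA exceeded ND CD11c- ATM by 2.42 ± 0.65 (limma adjusted p = 0.00906), a call lost without ND CD11c- ATM replicate 1 (limma adjusted p = 0.0914).

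Timp2 was close to level over preadipocytes and macrophages and lower in dendritic cells. The levels were 10.18 to 10.32 in HFD PA and 9.88 to 10.29 in ND PA, and the 13 macrophage arrays lay between 9.73 and 10.07. HFD ATDC had 8.44, 9.12 and 8.97, against 9.98, 9.73 and 9.80 in HFD CD11c+ ATM, and the groups did not overlap. Timp2 was lower in HFD ATDC by a log2 difference of -0.99 ± 0.20 (limma adjusted p = 0.00517). ND ATDC, at 9.24 and 8.72, were below ND CD11c- ATM by -1.05 ± 0.24 (limma adjusted p = 0.00866), which was lost without ND CD11c- ATM replicate 2 (limma adjusted p = 0.0712) or ND ATDC replicate 2 (limma adjusted p = 0.126). Among the comparisons of HFD, WL and ND mice within a cell type, the largest Timp2 difference in size was -0.19 ± 0.22, between HFD and ND CD11c- ATM.

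Timp3, which binds to the matrix and also inhibits ADAM proteases such as the one that releases TNF, was highest in preadipocytes. It had levels of 9.17, 9.39 and 9.15 in HFD PA, against 10.11, 9.82 and 10.05 in ND PA. The HFD arrays all lay below the ND arrays (difference -0.76 ± 0.36), opposite in direction to Timp1. In CD11c+ ATM the levels were 8.29, 8.01 and 7.29 in WL, against 6.03, 5.83 and 5.74 in HFD, and Timp3 rose in WL by 2.00 ± 0.36 (3.99-fold, limma adjusted p = 0.0117). The call was lost without HFD CD11c+ ATM replicate 2 (limma adjusted p = 0.0598) or replicate 3 (limma adjusted p = 0.0724). In CD11c- ATM the levels were 7.88 and 8.03 in WL, 6.34, 5.87 and 7.41 in HFD, and 7.25 and 5.71 in ND. WL lay above HFD by 1.42 ± 0.41 (limma adjusted p = 0.0638), and by 1.85 without HFD CD11c- ATM replicate 3 (limma adjusted p = 0.012). ND PA exceeded ND CD11c- ATM by 3.51 ± 0.41 (limma adjusted p = 1.64e-06), and HFD PA exceeded HFD CD11c+ ATM by 3.37 ± 0.36 (limma adjusted p = 1.16e-06). The preadipocyte markers given above were higher in WL than in HFD CD11c+ ATM too. In CD11c- ATM these markers averaged 7.91 in WL, 6.43 in HFD and 4.33 in ND, and Timp3 averaged 7.96, 6.54 and 6.48. The part of preadipocytes in these Timp3 levels was not tested.

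**Figure D3:**
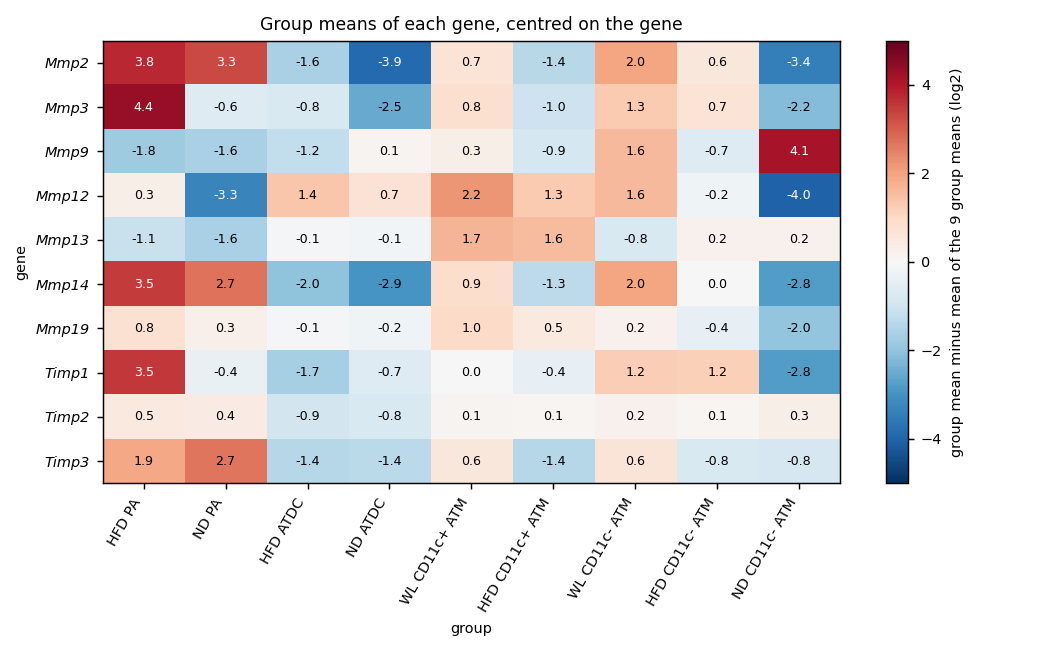
Mean log2 expression of each gene (rows) in each of the 9 groups (columns), minus the mean of its 9 group means; red is above and blue below that mean. Mmp2 and Mmp14 are above their mean in both PA groups, Mmp3 and Timp1 in HFD PA but not ND PA, and Mmp9 and Mmp12 are opposite in ND CD11c- ATM.

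In preadipocytes, Mmp3, Mmp12 and Timp1 were higher in HFD than in ND mice and passed the threshold of an adjusted p of 0.05 (3 of 10 genes, where 2.59% of all genes tested passed and 1.69% were higher). In CD11c- ATM, Mmp2, Mmp12, Mmp14 and Timp1 were higher and Mmp9 was lower in HFD (5 of 10, where 0.613% of all genes passed, 0.439% higher and 0.174% lower). Without HFD CD11c- ATM replicate 3 there were 3 of 10, and without ND CD11c- ATM replicate 1 there were 2 of 10. These contrasts were known when the genes were listed, so nothing is read from the shares. In dendritic cells none of the 10 passed, by limma, with 0.258% of all genes passing, while Mmp2 and Mmp9 had unadjusted p under 0.05. Mmp2 was at 5.81, 5.04 and 5.08 in HFD ATDC, against 3.00 and 3.05 in ND ATDC, a difference of 2.29 ± 0.76 (limma adjusted p = 0.3), or at least 2.18 since both ND arrays were below their median.

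The diet effect itself was set side by side between cell types, as a description, since both such comparisons are built on the known CD11c- ATM contrast and share its 5 arrays. For Mmp9 the HFD minus ND difference in PA minus that in CD11c- ATM was 4.64 ± 0.47. Between ATDC and CD11c- ATM it differed for Mmp9 by 3.44 ± 0.50 and for Timp1 by -5.02 ± 0.92. For Mmp12 the diet effects in PA and CD11c- ATM differed by -0.27 ± 0.67. Past the threshold were 1 of 10 genes for PA, where 0.277% of all genes passed, and 2 of 10 for ATDC, where 0.0581% did, and nothing is read from these shares.

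**Figure D4:**
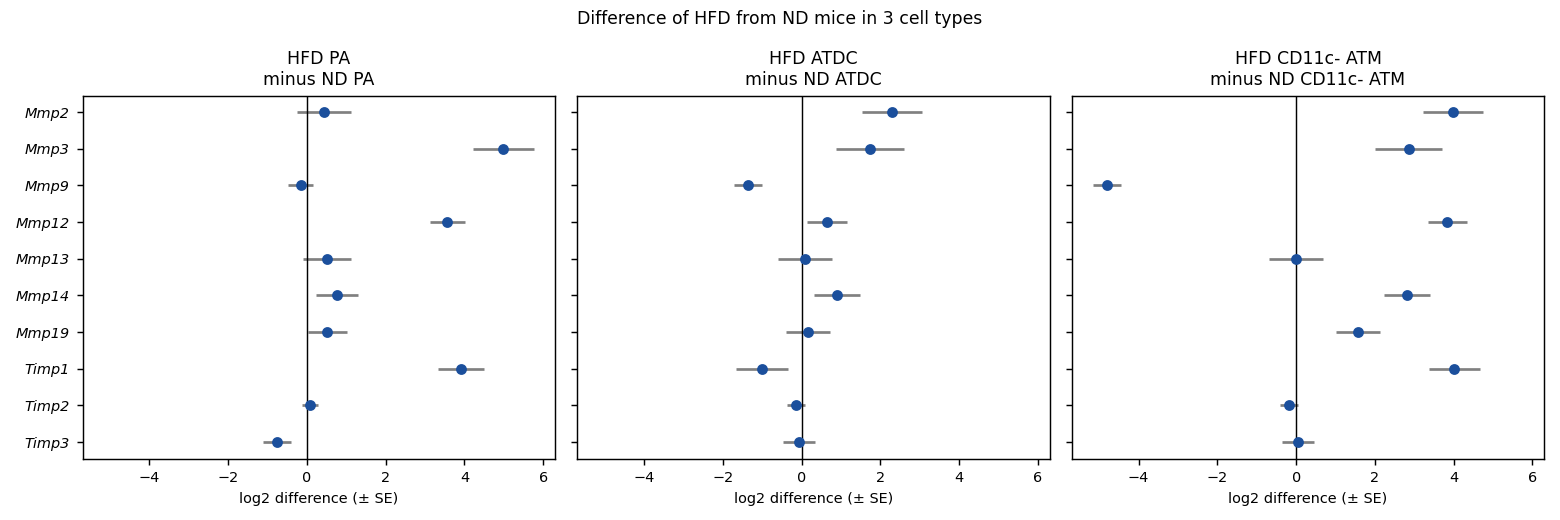
Difference of HFD from ND mice in log2 expression (horizontal axis) for each of the 10 genes (vertical axis) in PA, ATDC and CD11c- ATM; points are limma estimates and bars are ± 1 SE. Mmp9 is at -4.80 in CD11c- ATM and at -0.16 in PA, and Mmp12 is at 3.84 in CD11c- ATM and 3.56 in PA.

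After weight loss, CD11c- macrophages differed from those of ND mice in 7 of the 10 genes (6.18% of all genes passed, 3.23% higher and 2.95% lower). Mmp2, Mmp3, Mmp12, Mmp14, Mmp19 and Timp1 rose and Mmp9 fell in WL against ND. Leaving out each array gave 5 or 6 genes. Against HFD, Mmp9 alone passed in CD11c- ATM (2.96% of all genes) and Mmp14 and Timp3 passed in CD11c+ ATM (1.33% of all genes). Without HFD CD11c- ATM replicate 3, 4 of the 10 genes passed in CD11c- ATM. Without HFD CD11c+ ATM replicate 2 or replicate 3, 0 passed in CD11c+ ATM. The median over the 10 genes was 1.02 in each WL minus HFD comparison, against -0.10 in CD11c+ ATM and -0.09 in CD11c- ATM for all genes. Of all genes tested in CD11c+ ATM, 98 rose and 108 fell, against 74 and 139 with each array centred on its median. By limma, none of the 10 genes passed the test of whether the weight loss effect differed between CD11c+ and CD11c- ATM (0.161% of all genes did), although 1, Mmp9, had an unadjusted p under 0.05 (difference -1.14 ± 0.47, limma adjusted p = 0.64). The CD11c- ATM comparisons of WL with HFD and with ND share the WL arrays and reuse HFD or ND arrays whose levels were known.

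**Figure D5:**
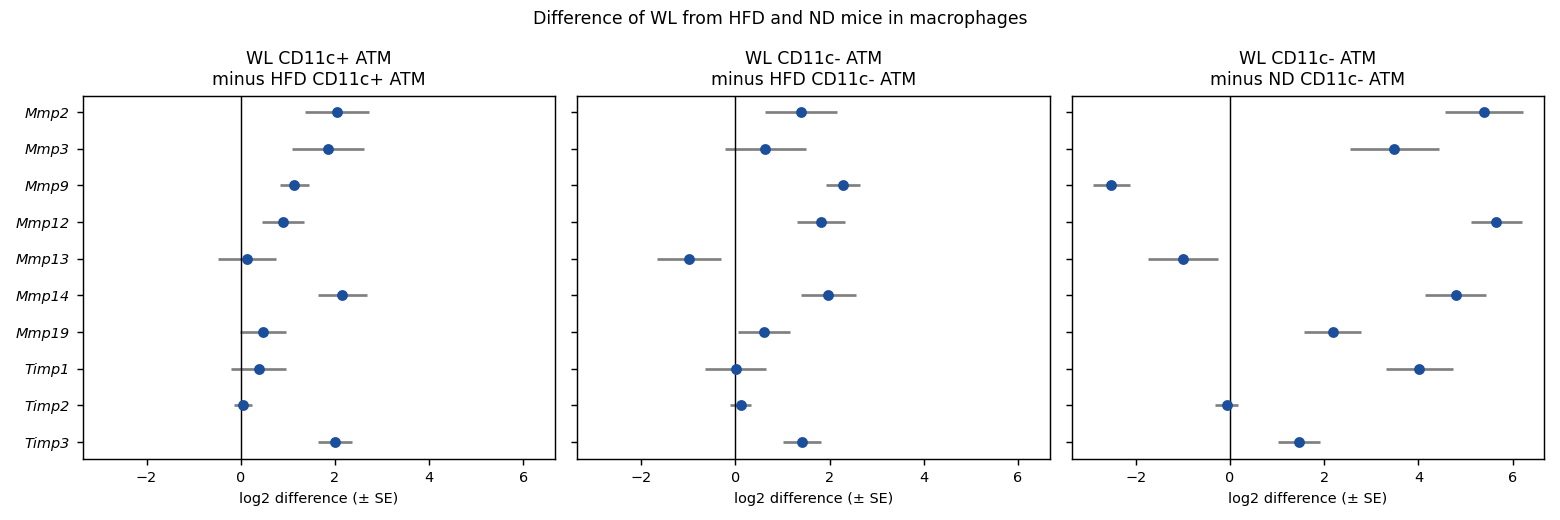
Difference of WL macrophages in log2 expression (horizontal axis) for each of the 10 genes (vertical axis) from HFD CD11c+ ATM, HFD CD11c- ATM and ND CD11c- ATM; points are limma estimates and bars are ± 1 SE. Mmp9 is at 1.14 and 2.28 against HFD and at -2.51 against ND, whereas Mmp12 is positive in all 3.

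Between cell types of the same diet, 7 of the 10 genes passed between HFD PA and HFD CD11c+ ATM (25.2% of all genes) and 6 between ND PA and ND CD11c- ATM (23.4% of all genes). Mmp9 was lower in HFD PA than in HFD CD11c+ ATM by a log2 difference of -0.92 ± 0.32 (limma adjusted p = 0.038), and that call was lost on leaving out any of the 6 arrays. ND ATDC and ND CD11c- ATM differed in 3 genes (8.27% of all genes), HFD ATDC and HFD CD11c+ ATM in Timp2 (4.16% of all genes). None of the 10 passed, by limma, between CD11c+ and CD11c- ATM of HFD mice, where 0.00645% of all genes did. At an unadjusted p under 0.05 there were 6 of the 10. That is a looser measure, no share of all genes was computed for it, and nothing is read from it. None passed between CD11c+ and CD11c- ATM of WL mice either (1.34% of all genes), although 2 of the 10 had unadjusted p under 0.05, and Mmp9 passed without WL CD11c- ATM replicate 2 (difference -2.05, limma adjusted p = 0.00552).

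Other genes of the same system were taken from lists. Of 17 further MMP and TIMP genes, 16 had a row and 11 were tested. By limma, 0 passed between HFD and ND mice in any of the 3 cell types, with 2 in PA, 1 in ATDC and 1 in CD11c- ATM at an unadjusted p under 0.05. Their medians were 0.19 in PA, -0.00 in ATDC and -0.06 in CD11c- ATM. Mmp11, or stromelysin 3, rose by 2.23 ± 0.55 in WL over HFD CD11c+ ATM (limma adjusted p = 0.0489), and this held in 1 of 6 leave-outs. Mmp7, or matrilysin, rose by 1.58 ± 0.35 in WL over HFD CD11c- ATM (limma adjusted p = 0.0184), at least 1.29 against the array median, and this held in 2 of 5 leave-outs. Mmp11, Mmp23 and Mmp27 were higher in PA than in macrophages of either diet, by 4.63, 4.96 and 2.22 in HFD and by 4.09, 5.53 and 2.19 in ND.

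Among 14 tested genes of activators, receptors and other inhibitors, Thbs2 and Cd44 were higher in HFD than in ND PA, by 3.25 ± 0.64 and 1.06 ± 0.22, and Cd44 passed in 3 of 6 leave-outs. Thrombospondin 2 binds MMP2 for clearance, and CD44 can hold MMP9 at the cell surface. In WL against ND CD11c- ATM, Lcn2, Cd44 and Thbs2 rose, in 1, 2 and 1 of the 4 leave-outs, and 0 of the 14 passed without ND replicate 2 or without WL replicate 1. Plau, the urokinase that starts the plasmin cascade, fell in HFD ATDC against HFD CD11c+ ATM by 1.99 on the log2 scale (SE 0.30, limma adjusted p = 0.000459). It passed in each of 6 leave-outs. By limma, 0 of the 14 passed in WL against HFD, with 5 in CD11c+ ATM and 3 in CD11c- ATM at an unadjusted p under 0.05.

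Of 15 tested ADAM and ADAMTS proteases, Adamts1, which cuts proteoglycans, rose in WL over HFD mice in both macrophage types. The differences were 2.36 ± 0.43 in CD11c+ ATM (limma adjusted p = 0.0112) and 2.58 ± 0.48 in CD11c- ATM (limma adjusted p = 0.00621). The first was lost without HFD CD11c+ ATM replicate 2. In WL against ND CD11c- ATM, 7 of the 15 rose and 0 fell, led by Adamts1 at 3.34 ± 0.52, Adamts5 at 3.26 ± 0.70 and Adam12 at 3.21 ± 0.58. Leaving out each array gave 2 (without ND CD11c- ATM replicate 1) to 5 genes. Of 17 tested matrix substrates, 12 rose and 0 fell in that comparison, among them Col3a1 by 3.88 ± 0.59 and Bgn by 3.74 ± 0.58, which both passed in each of 4 leave-outs. Leaving out each array gave 5 (without ND CD11c- ATM replicate 2) to 9 genes, and 6.18% of all genes passed. The median over the 17 was 2.91, against -0.08 for all genes, and the preadipocyte markers named above moved with them. Between ND PA and ND CD11c- ATM, 17 of the 17 were higher in PA past the threshold, where 12.6% of all genes were. Between HFD PA and HFD CD11c+ ATM, 16 of the 17 were, against 11.7% of all genes.

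The 12 tested transcription factor and cytokine genes known to act on MMP genes included Il1b and the AP-1 subunit gene Fosl2. Il1b rose in WL over HFD CD11c- ATM by 3.40 ± 0.42 (limma adjusted p = 0.000101) and Fosl2 by 2.09 ± 0.33 (limma adjusted p = 0.00151), and each passed in all 5 leave-outs. Il1b rose in WL over HFD CD11c+ ATM as well, by 1.89 ± 0.37 (limma adjusted p = 0.0202), in 3 of 6 leave-outs. The weight loss effect on Fosl2 was smaller in CD11c+ than in CD11c- ATM, by a log2 difference of -2.67 ± 0.44 (limma adjusted p = 0.00948). Between HFD and ND mice 0 of the 12 passed by limma in PA or ATDC, with 0 and 2 at an unadjusted p under 0.05, and Il1b was higher in HFD than in ND CD11c- ATM by 1.98 ± 0.42, past the threshold in 1 of 5 leave-outs.

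The genes with the most similar patterns over all arrays were named for each member. Over the 24 arrays, Mmp2 correlated best with Col3a1 (r = 0.98) and Col6a1 (r = 0.97), and Mmp14 with Col6a5 (r = 0.99) and Igfbp7 (r = 0.99). Timp3 correlated best with Osr1 (r = 0.97) and Bmper (r = 0.97), and Mmp3 with Col8a1 (r = 0.93) and Fbln7 (r = 0.92). Timp1 shared Fbln7 (r = 0.88) and Thbs2 (r = 0.88) among its nearest genes. Mmp12 was most like Fabp5 (r = 0.92) and Acp5 (r = 0.92), and Mmp9 most like Pla2g2d (r = 0.92). Mmp13 and Mmp19 were most like Flvcr1 (r = 0.89) and Igf2r (r = 0.87), and Timp2 most like Fer (r = 0.94). These are descriptions over arrays of the same 9 groups.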

How the data were processed

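Gene expression was measured on 24 single-colour arrays of amplified RNA from pooled sorted cells. The deposited table holds log2 normalized values, and the submitters' processing notes name RMA, oligo and limma without versions. The sources used here state neither a genome build nor array batches. Of 41345 probe rows, 23521 had 1 gene symbol, 1814 had several and 16010 had none in the platform annotation, and 23328 matched RefSeq genes by ID. Of 1082 genes with several rows, the kept row was that of highest average level across the 24 arrays. Genes above the array median on at least 2 arrays were tested.

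Group means of all 24 arrays were fitted with limma 3.58.1 in R 4.3.3 (15 residual degrees of freedom), in 12 comparisons and 3 interactions. Tests were two-sided, with Benjamini-Hochberg adjustment over all 15496 genes within each comparison and a threshold of 0.05. Shares of all genes are at that threshold. Counts at an unadjusted p have no such share beside them and are descriptions. The fit was tested on simulated data: of 50 genes changed by 2 log2 units, 68% to 86% were called, and 8% to 36% of 50 changed by 1. The simulated arrays were independent, with the same spread of a gene in all groups. The larger variation of the WL arrays was therefore not in it. The members, gene lists and marker lists were chosen with earlier results of these data known, and all members were named. Deviations of same-numbered replicates from their group means correlated weakly at most (29 pairs, r = -0.13 to 0.25), and the main fit used no block. The 4 pairs above 0.1 were all between HFD groups, so a pairing there may be ignored. Alternatives changed the filter, the row rule, array weights, the block, the arrays fitted, the variance prior, the centring, and left out each array. Promoter windows came from RefSeq GRCm38.p6.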

Additional observations from a re-analysis of the deposited data

Results flagged for a closer look

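For Mmp9, the effect of diet (HFD minus ND) differed between cell types in the fitted difference itself. The effect in PA minus that in CD11c- ATM was 4.64 ± 0.47. Between ATDC and CD11c- ATM the Mmp9 effect differed by 3.44 ± 0.50. For Timp1 the effect differed between ATDC and CD11c- ATM by -5.02 ± 0.92. All of them rest on the 2 ND CD11c- ATM arrays, at 9.34 and 9.51 for Mmp9 and 3.55 and 4.03 for Timp1, and without either array neither difference between ATDC and CD11c- ATM passed the threshold. The Timp1 difference was also lost without HFD ATDC replicate 1 or 3, or without HFD CD11c- ATM replicate 2 or 3. It depends on the 2 ND ATDC arrays as well, at 5.38 and 6.50 for Timp1. Over all leave-outs it lay between -5.58 and -4.34. Of the 7 alternatives other than leave-outs, it passed in 2. The CD11c- ATM contrast was known when the genes were listed, so these values are a description and no p-value is given.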

How the results depend on the processing

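Of 120 differences of the 10 genes over the 12 comparisons, 35 passed, 20 of them under every alternative and leave-out run, and 0 of the 35 changed direction. Of the 35, 7 were between HFD PA and HFD CD11c+ ATM (25.2% of all genes) and 6 between ND PA and ND CD11c- ATM (23.4%). The known contrasts of HFD with ND gave 5 in CD11c- ATM (0.613%) and 3 in PA (2.59%). Nothing is read from the pooled count. A fit of the compared groups alone, with fewer arrays to estimate the spread, lost 11 of the 35. The counts it moved most became 1 of 5 (HFD against ND CD11c- ATM), 0 of 2 (WL against HFD CD11c+ ATM), 0 of 1 (WL against HFD CD11c- ATM), 0 of 1 (HFD ATDC against HFD CD11c+ ATM) and 0 of 2 (diet effect in ATDC against CD11c- ATM). The other 85 did not pass. Counting the 3 interactions too, 14 results not called in the main fit passed under some setting. Among them was an interaction, that of Mmp2 for the diet effect in PA against CD11c- ATM. The replicate numbers do not show whether same-numbered pools shared mice. In each HFD group the mast cell marker level was highest on replicate 1 and lowest on replicate 2. Comparisons between HFD cell types may therefore ignore a pairing. With the replicate block, 4 genes in place of 5 passed in HFD against ND CD11c- ATM (Mmp14 did not), 1 gene in place of 2 passed in WL against HFD CD11c+ ATM, 2 in place of 1 in WL against HFD CD11c- ATM, and 1 in place of 2 for the diet effect in ATDC against CD11c- ATM. Without the filter, and likewise with centred arrays, the count was 1 in WL against HFD CD11c+ ATM and 1 for that diet effect. Array weights gave 1 for that diet effect and 2 in place of 1 for the effect in PA against CD11c- ATM. A trended robust prior gave 2 in WL against HFD CD11c- ATM. The cause of these moves was not tested.

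Leaving out each array gave 2 to 6 genes in HFD against ND CD11c- ATM, 0 to 2 in WL against HFD CD11c+ ATM, 1 to 4 in WL against HFD CD11c- ATM, 0 to 1 in WL CD11c+ against WL CD11c- ATM and 0 to 2 for the diet effect in ATDC against CD11c- ATM. Over all genes, array weights moved the count by over 1.5 times in 9 of the 15 comparisons and interactions (1119 in place of 401 in HFD against ND PA, 206 in place of 95 in HFD against ND CD11c- ATM, 43 in place of 208 in WL CD11c+ against WL CD11c- ATM). The fit of the compared groups alone moved it in 12 (180 in place of 401 in HFD against ND PA, 3 in place of 95 in HFD against ND CD11c- ATM, 222 in place of 957 in WL against ND CD11c- ATM). The replicate block moved it in 4 (49 in place of 95 in HFD against ND CD11c- ATM). Differences of about 1 log2 unit are at the limit of what groups of 2 or 3 arrays can show.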
